A study of Homo sapiens with 24 samples.

Results

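Histone genes were examined in poly(A) RNA-seq libraries of the human lines HEK293T, from embryonic kidney, and A549, from lung adenocarcinoma. The genes were those whose symbol begins with H1-, H2AC, H2BC, H3C or H4C followed by a number, with pseudogenes left out. This gave 74 genes of the 60236 in the table, after 16 pseudogenes were removed from 90 matching symbols. Of these, 73 encode a histone, in the classes H1 (10 genes), H2A (16), H2B (19), H3 (13) and H4 (15). The remaining one, H1-10-AS1, is an antisense RNA that overlaps H1-10 and matched by its symbol alone. Most of the genes lie in clusters, with 54 on chromosome 6 and 13 on chromosome 1.

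Each line was transfected for 48 h with a plasmid that drives snaR-A, a small noncoding RNA made by RNA polymerase III, or a scrambled version of it (scramble) from the U6 promoter. Other cells received eGFP or the splicing factor SF3B2 from pcDNA3.1. The 8 groups of cell line and plasmid had 3 replicates each, for 24 libraries. All groups were transfected, so none was untreated, and eGFP and scramble differ in plasmid as well as in insert. The study's methods call the replicates of genomic experiments biological and place their processing on a single day. The labels do not say whether they were separate cultures, so p-values measure the spread between these libraries.

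Replication-dependent histone mRNAs are made in S phase, when new DNA is packed. They do not end in a poly(A) tail. Their end is a short stem-loop that is bound by SLBP, and they are cut just after it by the U7 small nuclear ribonucleoprotein, of which LSM10 and LSM11 are subunits. Some of these genes also make a longer, polyadenylated mRNA. Other members, such as the linker histone H1-10, are replication-independent and polyadenylated. Libraries that select poly(A) RNA therefore see the class through several kinds of transcript.

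The stem-loops are shown because the annotated end sets which mRNAs a poly(A) library can hold. In GENCODE 44 transcripts, the motif GGNNCTTNTNANNGCC lay within 20 bases of a transcript end in 67 of the 74 genes (90.5%) and in 9 of 62626 other genes (0.014%). The sequences below are from GRCh38, in the direction of transcription, with the stem-loop in capitals. Positions are those of the capitals.
H2AC6, chr6:26124669-26124684, plus strand: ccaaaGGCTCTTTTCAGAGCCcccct
H2BC12, chr6:27146366-27146381, minus strand: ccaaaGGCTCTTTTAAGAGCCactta
H3C6, chr6:26225596-26225611, plus strand: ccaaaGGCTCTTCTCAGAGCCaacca
H4C8, chr6:26285131-26285146, minus strand: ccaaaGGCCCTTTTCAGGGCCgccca
H4C14, chr1:149833032-149833047, plus strand: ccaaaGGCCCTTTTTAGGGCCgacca
The stem-loop of H2AC6 was the commonest, with the same letters in 39 genes of the H1, H2A, H2B and H3 classes. The form of H2BC12 was in 9 genes, among them H2BC4, H2BC5 and H2BC11. That of H4C8 was in 10 H4 genes and that of H4C14 in 4, including its copy H4C15. The form of H3C6 was found in that gene alone among the 74.

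By annotation, 50 genes had transcripts that all end at the stem-loop. A further 18 had a stem-loop and at least 1 longer or alternative transcript, and 6 had no stem-loop. The last include H1-10 (chr3:129314771-129316286), H1-10-AS1 and H2BC12L. These names describe the annotation, not the RNA in the libraries. In promoter windows of 300 bases from RefSeq, which matched 66 of the genes, the octamer ATTTGCAT on either strand was in 37.9%, against 1.8% of 27305 windows. It was in 14 of 18 H2B and 10 of 15 H2A promoters and in none of the 9 H1 or 13 H4 promoters that matched.

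Each library held 195185935 to 260878271 counts. Levels are in CPM, counts scaled to the normalized library size. A gene with a count of 0 could still be at up to 0.0115 to 0.0154 CPM (3 counts, for counting error alone). That limit is over total counts, before normalization. The factors that normalize library size were 0.801 to 0.881 in A549 and 1.02 to 1.25 in HEK293T. On the scale of the levels the limit is therefore higher in A549 and lower in HEK293T. In the SF3B2 groups the SF3B2 mRNA was at 24053 to 48885 CPM, and in 17 of the other 18 libraries it was at 293 to 371 CPM. The library labelled A549 scramble replicate 3 stood apart at 8773 CPM. HEK293T eGFP replicate 3 also stood apart. The summed level of 8 A549 markers was 18788 to 21133 CPM in A549 and 42.7 to 60.3 CPM in 10 HEK293T libraries, but 729.9 CPM in that library. Its level of AKR1B10, an A549 marker, was 99.5 CPM, against 0.0858 and 0.15 CPM in the other eGFP replicates. HEK293T SF3B2 replicate 3 had a marker sum of 68.6 CPM. The 6 HEK293T markers summed to 665 to 1115 CPM in HEK293T and 78.1 to 85.6 CPM in A549, with CDKN2A at 0 to 0.0511 CPM in A549. For A549 snaR-A replicate 3, some label fields name A549 and others HEK293T. It was grouped as A549, and its A549 markers summed to 19065 CPM. For the plasmid comparisons, some results that rest on these libraries are given with and without them. The counts of genes that differed between the lines are given with all 24 libraries.

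The linker histone H1-10 had a mean of 45.3 CPM per kb of exon over the 24 libraries. Other genes with high levels per kb were H2BC12 (32.1), H1-2 (17.9), H2BC5 (11.8), H4C3 (11.7) and H2AC6 (10.1 CPM per kb). All but H4C3 are genes known to make polyadenylated mRNA as well. In the H3 class the highest were H3C6, at 2.35, and H3C10, at 1.39 CPM per kb.

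Most of the other genes were low. The median was 0.229 CPM per kb over the 50 genes with only stem-loop ends and 1.25 CPM per kb over the 18 with longer transcripts. It was 0.223 CPM per kb over the 6 without a stem-loop, of which 3 never exceeded 3 counts in any library. More than 1 CPM per kb was reached by 10 of the 50 and by 11 of the 18. In all, 25 of the 74 genes had a mean of at least 1 CPM, 7 never exceeded 3 counts in any library and 3 of those were at 0 throughout.

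**Figure D1:**
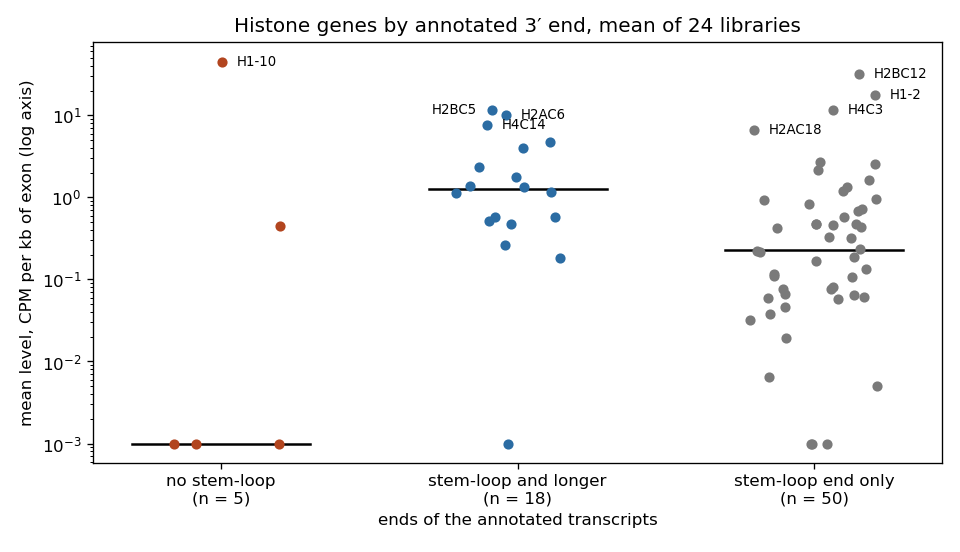
Mean level of each histone gene over 24 libraries, in CPM per kb of exon on a log axis, by the ends of its annotated transcripts. Each point is a gene, bars are medians, and genes below 0.001 are drawn at that value. The plot holds 73 of the 74 genes. H1-10 lies above all stem-loop genes, but 3 other genes without a stem-loop never exceeded 3 counts in any library. The median is 1.25 for genes with longer transcripts and 0.229 for genes with stem-loop ends alone.

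Some pairs of genes have nearly identical sequence, so their split is uncertain. H2AC18 shares all of its 31-base words with H2AC19, and was listed at 0 in 5 of the 24 libraries, while H2AC19 was at 0 in 17. The sum of the pair was steadier, between 1.73 and 7.24 CPM. H4C14 and H4C15 (98.6% of the words of H4C14 shared) and H3C14 and H3C15 were treated in the same way, with the sum given beside the single genes. Other genes that share sequence were not summed, among them H4C11 and H4C12 (92.5% of the words of H4C11 shared). H2BC12 shares 71.0% of its words with other genes, H2BC12L among them.

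In HEK293T cells, snaR-A was compared with scramble, which was driven from the same U6 promoter. Some genes of each core histone class rose, among them H3C6, H2AC6, H4C14 and H2BC17, and the linker histone H1-10 fell. Of the 52 histone genes that passed the low-count filter, 19 rose at an adjusted p under 0.05 (17.8% of all tested genes rose) and 1 fell (18.5% of all fell). A log2 fold change above 1 was reached by 9 of them, against 3.95% of all genes, and by 5 without scramble replicate 3. The median log2 fold change was 0.51 over the 52 genes and -0.01 over all genes. The count was 13 without scramble replicate 1, 13 without snaR-A replicate 2 and 12 when all 12 HEK293T libraries shared an estimate of the spread.

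By class, 7 of 13 H2A, 6 of 13 H2B, 3 of 8 H3 and 3 of 12 H4 genes rose, and none of the 5 H1 genes. The 3 of 12 H4 genes are near the 17.8% of all genes that rose. By annotated end, 11 of 17 genes with longer transcripts rose and 8 of 32 with stem-loop ends alone. The 8 of 32 are likewise near the share of all genes. The median log2 fold change was 0.70 for longer transcripts, with 15 of 17 values above 0. It was 0.51 for stem-loop ends alone, with 31 of 32 above 0. Of the 8 genes on the list of polyadenylated histones, H2AC6, H2BC5 and H2BC12 rose, H1-10 fell, and 4 did not pass, H1-2, H2BC4 and H2BC21 among them.

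H3C6, which encodes a replication-dependent H3, was at 2.32, 2.08 and 2.49 CPM in scramble and 5.80, 6.27 and 6.38 CPM with snaR-A. The groups did not overlap, and the log2 fold change was 1.43 ± 0.10 (SE, n = 3 against 3, adjusted p = 1.79e-04, edgeR). H2AC6 went from 3.19, 3.14 and 3.03 CPM to 7.23, 7.88 and 6.97 CPM (1.25 ± 0.08, adjusted p = 1.73e-04). Every library of one group lay above every library of the other for both genes, for which the exact two-sided permutation p was 0.1, the smallest that 3 against 3 allows.

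H4C14 was at 16.5, 16.3 and 14.2 CPM in scramble and 33.5, 32.3 and 31.3 CPM with snaR-A, while its copy H4C15 stayed at 7.64 to 9.36 and 7.33 to 7.39 CPM. Summed, the pair rose from 24.6, 25.7 and 21.9 to 40.9, 39.6 and 38.7 CPM (log2 fold change 0.73 ± 0.06, adjusted p = 2.60e-04). The rise was thus seen without the split between the copies, but was smaller than the 1.06 ± 0.06 of H4C14 alone.

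H4C8 was at 1.65, 1.49 and 1.72 CPM in scramble and 4.08, 2.94 and 2.74 CPM with snaR-A (1.02 ± 0.16, adjusted p = 0.00199). This call was lost when all 12 HEK293T libraries were fitted together (adjusted p = 0.14), as were those of H2BC5, H2BC11 and H1-10. H2BC12, the stem-loop gene with the highest level per kb, rose by little but with tight replicates, from 11.2, 11.1 and 11.1 to 13.3, 13.6 and 13.6 CPM (0.29 ± 0.05, adjusted p = 0.00320). H2BC17 (1.02), H3C10 (0.73), H4C3 (0.61) and H2BC5 (0.51) also rose.

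H1-10 was at 111, 114 and 100.1 CPM in scramble and 94.3, 89.7 and 89.0 CPM with snaR-A (log2 fold change -0.24 ± 0.05, adjusted p = 0.00898). Scaled by library size alone, the change was -0.14 and lost its call (adjusted p = 0.0548). The groups did not overlap.

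**Figure D2:**
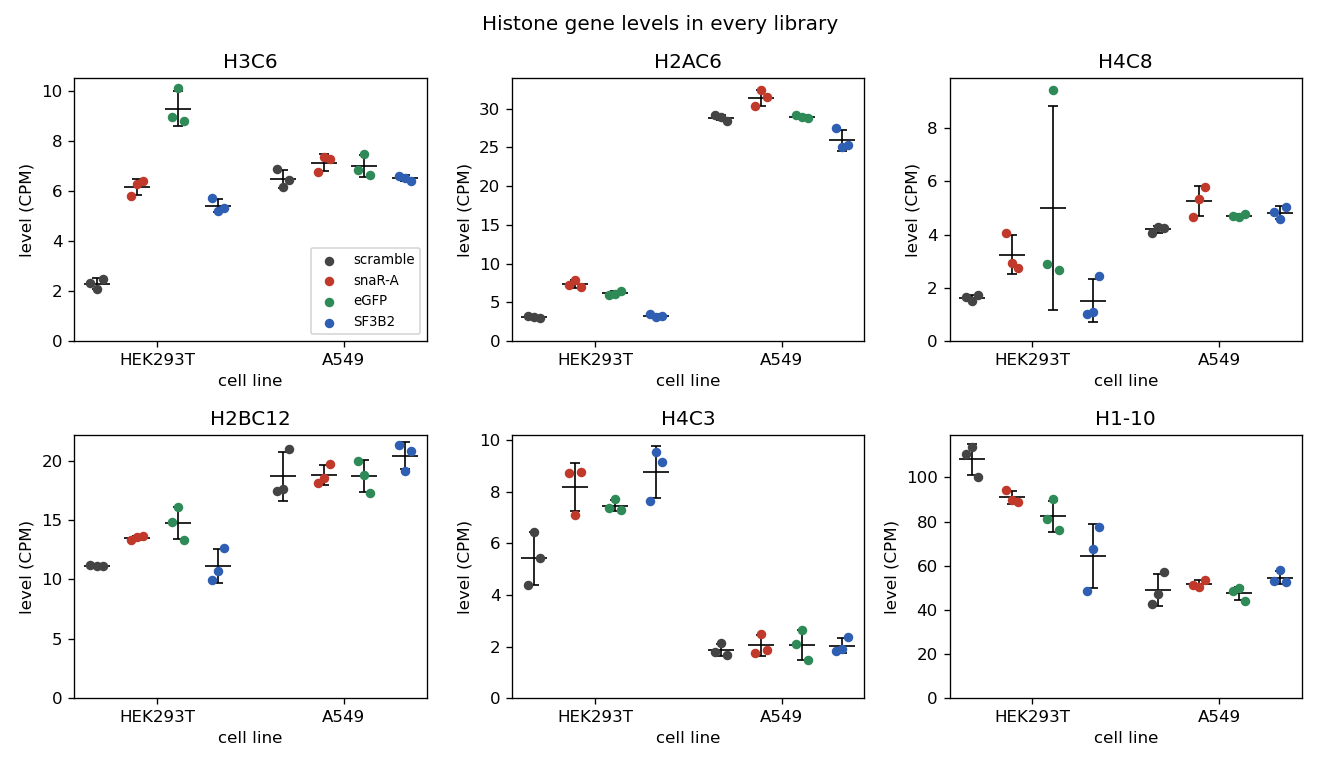
Level in CPM of 6 histone genes in every library, by cell line and plasmid, with the mean and SD of 3 replicates. In HEK293T, H3C6 lies at 2.08 to 2.49 CPM in scramble and above 5 CPM with the other plasmids, and H4C8 reaches 9.43 CPM in a single eGFP library.

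The eGFP plasmid was compared with scramble as the second control. In HEK293T, H3C6, H2AC6 and H2BC6 rose, and H1-10 fell. Both comparisons use the same scramble libraries, so their changes are not independent. Whether the changes they share came from the inserts or from the scramble libraries was not tested. Of 50 genes tested, 15 rose (22.9% of all genes rose) and 3 fell (25.8% of all fell), with 9 above a log2 fold change of 1 (8.1% of all). The median was 0.60 over the histone genes and -0.01 over all genes. Without eGFP replicate 3, the library with A549 markers, 29 genes passed instead of 18, 26 of them higher, 16 of them above a log2 fold change of 1, and the median was 0.87. Without eGFP replicate 2, 12 genes were higher and 4 lower, and the median was 0.18, with 33 of 51 values above 0.

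H3C6 was at 8.95, 10.1 and 8.81 CPM with eGFP, above every scramble library (log2 fold change 2.02 ± 0.11, adjusted p = 7.37e-05) and 2.05 without replicate 3. H2AC6 was at 5.96, 6.1 and 6.49 CPM (0.99 ± 0.09, adjusted p = 1.89e-04). H2BC6 rose from 0.367, 0.252 and 0.390 to 0.858, 0.942 and 0.958 CPM (1.45 ± 0.19, adjusted p = 8.38e-04). For each of these genes the groups did not overlap.

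H4C8 was uneven, at 2.91, 9.43 and 2.68 CPM with eGFP (1.63 ± 0.47, adjusted p = 0.0224). The change was 0.78 without replicate 2, and the call was lost without any of the 3 scramble libraries (adjusted p = 0.0663 to 0.0777). H2BC17 had the same high library, at 1.11, 1.89 and 0.763 CPM, and its change of 1.00 lost its call without eGFP replicate 2 (0.58) or any scramble library.

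H1-10 was at 81.0, 90.1 and 76.1 CPM with eGFP, below all scramble libraries (-0.39 ± 0.08, adjusted p = 0.00418). H4C15 fell by 0.27 on the log2 scale, but its call was lost without 5 of the 6 libraries, all but scramble replicate 3, and its sum with H4C14 changed by 0.09 ± 0.08 (adjusted p = 0.40). H2BC5 (0.80), H3C10 (0.71), H2BC15 (0.59), H4C3 (0.46) and H2BC12 (0.41) rose. The H4C3 call was lost without eGFP replicate 1 or 2 or scramble replicate 1 or 3, with adjusted p between 0.0558 and 0.0704.

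H2AC25, singled out after its values were seen since it is below the level set for named genes, had the largest fitted change of both comparisons. It was at 0.0519, 0.0560 and 0.0944 CPM in scramble, 0.469, 0.648 and 0.562 CPM with snaR-A (log2 fold change 3.07 ± 0.27) and 0.966, 1.31 and 0.848 CPM with eGFP (3.95 ± 0.29). Its SF3B2 libraries were at 0.786, 0.800 and 0.949 CPM.

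SF3B2 was compared with eGFP, which is carried by the same plasmid backbone. In HEK293T, 48 of the 50 fitted values were below 0 and the median was -0.95, against -0.02 over all genes. Without eGFP replicate 2 the median was -0.53. Yet only H2AC6 and H3C6 passed the test, both lower (0.133% of all genes were lower). The count rests on single libraries. It was 0 without any of eGFP replicates 1, 2 and 3 or SF3B2 replicates 1 and 2, and 8 without SF3B2 replicate 3. It was also 14 with DESeq2, 8 with the exactTest of edgeR and 16 when all 12 HEK293T libraries were fitted together.

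H3C6 was at 5.70, 5.21 and 5.30 CPM with SF3B2, below the 8.81 to 10.1 CPM of eGFP but above scramble (-0.79 ± 0.09, adjusted p = 0.0461). H2AC6 was at 3.56, 3.13 and 3.19 CPM, near the scramble level (-0.92 ± 0.10 against eGFP, adjusted p = 0.0355). Both calls were lost without each library but SF3B2 replicate 3, with adjusted p between 0.0818 and 0.256. The sum of H4C14 and H4C15 fell from 24.6, 28.3 and 23.9 to 13.4, 12.4 and 14.3 CPM (-0.95 ± 0.09, adjusted p = 0.0213 when copies were summed). H1-2 was at 5.02, 5.53 and 7.33 CPM against 10.3, 14.3 and 9.37 CPM with eGFP (-0.94 ± 0.20, adjusted p = 0.105).

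**Figure D3:**
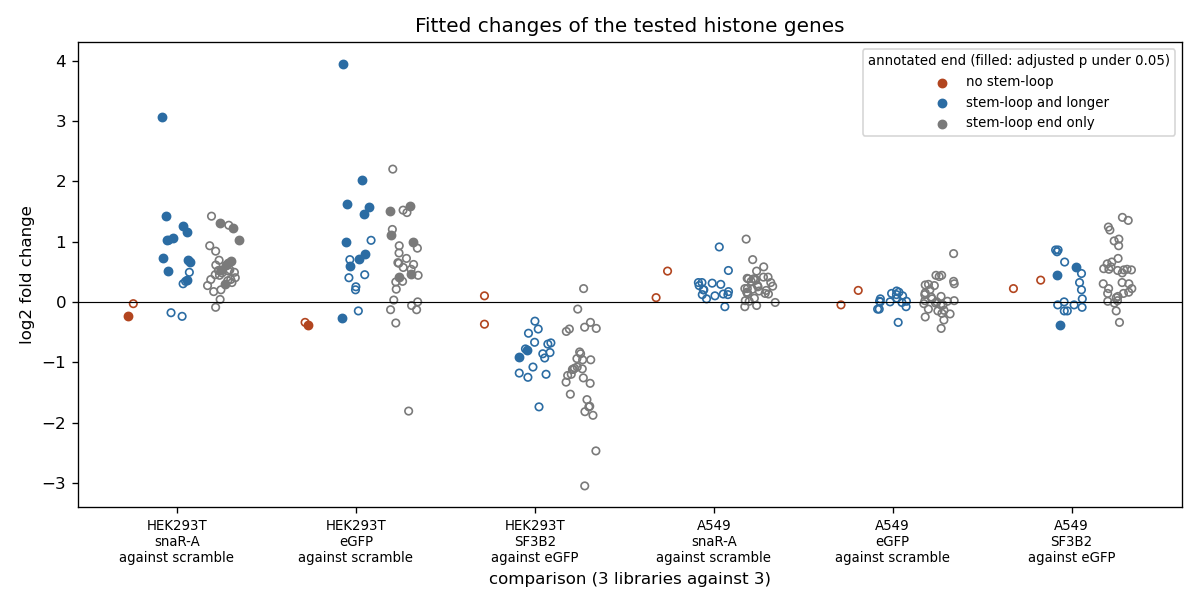
Fitted log2 fold change of the tested histone genes, with 1 left out, in the 6 plasmid comparisons, by annotated end. Each point is a gene, and filled points have an adjusted p under 0.05. In HEK293T the stem-loop genes lie mostly above 0 for snaR-A and eGFP against scramble and below 0 for SF3B2 against eGFP, where 2 points are filled, and in A549 there are 3 filled points in all.

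In A549 few histone genes passed the test. With snaR-A, none of 51 tested genes passed the test in edgeR (0.0185% of all genes passed, in either direction), 5 had an unadjusted p under 0.05 and DESeq2 called 1. The median was 0.22, with 47 of 51 values above 0, against 0.00 over all genes. It was 0.43 without scramble replicate 3, the library with high SF3B2, 0.12 without scramble replicate 2 and 0.11, with 37 of 51 values above 0, without snaR-A replicate 3, the library with conflicting labels. H4C14, the gene DESeq2 called, was at 6.63, 6.09 and 11.1 CPM in scramble and 14.5, 15.3 and 15 CPM with snaR-A (0.91 ± 0.21, adjusted p = 0.79 in edgeR). Without scramble replicate 3 the change was 1.23 ± 0.07 (adjusted p = 0.00228) and this was the gene called. The sum of H4C14 and H4C15 was 19, 20.7 and 20 CPM in scramble and 25.3, 28.2 and 25.3 CPM with snaR-A, without overlap (0.40 ± 0.06, adjusted p = 0.42).

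With eGFP against scramble in A549, none of 50 genes passed in edgeR or DESeq2 (1.49% of all genes passed in edgeR), 1 had an unadjusted p under 0.05, and the median was 0.02. Without scramble replicate 3 the count was again 0 and the median was 0.12. H3C6 was at 6.17 to 6.88 CPM in scramble and 6.66 to 7.49 CPM with eGFP, and H2AC6 at 28.5 to 29.2 and 28.7 to 29.2 CPM.

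With SF3B2 against eGFP in A549, 2 of 53 genes rose (3.42% of all genes rose) and 1 fell (3.6% of all fell). H2BC15 was at 3.61, 3.79 and 3.81 CPM with SF3B2 and 2.30, 2.37 and 2.90 CPM with eGFP (0.58 ± 0.12, adjusted p = 0.0329). H2BC11 was at 1.5, 1.49 and 1.38 CPM against 1.14, 1.06 and 1.02 CPM (0.45 ± 0.10, adjusted p = 0.0420). H4C15 fell by 0.38 on the log2 scale, while its sum with H4C14 changed by -0.05 ± 0.09 (adjusted p = 0.78). H2BC11 lost its call without each of the 6 libraries in turn, H2BC15 without all but eGFP replicate 3, and H4C15 without 4 of them. The count was 0 without eGFP replicate 2 or any SF3B2 library, 1 without eGFP replicate 1 and 9 without eGFP replicate 3. It was also 0 when all 12 A549 libraries were fitted together and 6 with DESeq2.

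Whether a plasmid effect differed between the lines was tested directly, as HEK293T minus A549. For snaR-A against scramble, 5 of 60 genes had a higher (6.64% of all genes) and 1 a lower (4.79%) log2 fold change in HEK293T. H3C6 (difference 1.31 ± 0.13, adjusted p = 6.4e-04) and H2AC6 (1.14 ± 0.08, adjusted p = 5.2e-05) differed without each library in turn. H4C8 (0.70), H2BC5 (0.42) and H2BC21 (-0.50) lost their calls without 11, 10 and 7 of the 12 libraries in turn. The remaining gene, H2AC25 (2.02), was singled out after its values were seen. The count was 2 without A549 scramble replicate 2, A549 snaR-A replicate 2 or 3, HEK293T scramble replicate 1 or HEK293T snaR-A replicate 2, and 3 without A549 snaR-A replicate 1 or HEK293T snaR-A replicate 3. Without A549 scramble replicate 3 it was 6, with 4 higher and 2 lower.

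For eGFP against scramble, 6 of 57 genes had a higher (10.8% of all) and 1 a lower (15.6% of all) value in HEK293T. H3C6 (1.85 ± 0.13), H2BC6 (1.33 ± 0.30) and H2AC6 (0.92 ± 0.08) were higher without each library in turn. H2BC5 (0.72) lost its call without 7 of the 12 libraries. The count was 12 without HEK293T eGFP replicate 3 and 9 without A549 scramble replicate 3. For SF3B2 against eGFP, 5 of 59 genes had a lower value in HEK293T (2.58% of all). They were H2BC15 (-1.39 ± 0.22), H2BC6 (-1.35 ± 0.25), H1-2 (-0.92 ± 0.24), H2AC6 (-0.75 ± 0.09) and H3C6 (-0.68 ± 0.11). The count was 26 without HEK293T SF3B2 replicate 3, 8 without HEK293T eGFP replicate 3 and 3 without HEK293T SF3B2 replicate 2. H2BC6 lost its call without HEK293T SF3B2 replicate 2, and H1-2 without 10 of the 12 libraries, all but HEK293T eGFP replicate 3 and HEK293T SF3B2 replicate 3.

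RN7SK was set beside the genes with stem-loop ends alone. RN7SK is an abundant RNA polymerase III transcript without a poly(A) tail. In HEK293T it was at 16.3, 18.4 and 18.2 CPM in scramble, 30.9, 14.6 and 14.1 CPM with snaR-A, 17.9, 40.4 and 5.49 CPM with eGFP and 2.62, 3.51 and 18.6 CPM with SF3B2. The high libraries were snaR-A replicate 1 and eGFP replicate 2, and the low ones eGFP replicate 3 and SF3B2 replicates 1 and 2.

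The summed level of 48 genes with stem-loop ends alone (all such genes but H1-2 and H2BC12, which are known to make polyadenylated mRNA) was 19.4, 23.8 and 21.8 CPM in scramble. It was 35.7, 25.9 and 26.3 CPM with snaR-A, 26.1, 42.9 and 18.6 CPM with eGFP and 14, 16.4 and 23.0 CPM with SF3B2. The same libraries were high and low. Yet snaR-A replicates 2 and 3 had less RN7SK than every scramble library and a higher sum than each of them. In 8 of the 8 groups the replicate with the most RN7SK had the highest sum. In all 4 A549 groups that library was replicate 3, so the A549 groups are not separate instances. In HEK293T scramble the most RN7SK, 18.4 CPM in replicate 2, was close to the 18.2 CPM of replicate 3. The order of the replicates below the highest could differ. A549 snaR-A replicate 2 had RN7SK at 0 and a sum of 15.1 CPM, against 1.12 and 12.9 CPM in replicate 1. This pattern was noticed after the values were seen.

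The other 18 RNAs on the list of nonpolyadenylated transcripts were high in the same libraries as RN7SK in some groups only. In HEK293T their summed levels were 48.2, 15.1 and 15.9 CPM in scramble and 39.0, 28.9 and 13.9 CPM with snaR-A. They were 16.1, 63.4 and 37.4 CPM with eGFP and 27.7, 36.6 and 28.3 CPM with SF3B2. The highest replicate was that of RN7SK with snaR-A and eGFP, but not in scramble or with SF3B2. In A549 it was that of RN7SK with SF3B2 alone. RN7SK itself did not pass the test in any plasmid comparison (for snaR-A in HEK293T, 0.18 ± 0.27, adjusted p = 0.64). Of the 11 list members tested there, SCARNA7 was lower and 10 did not pass, and none of the 10 tested passed for eGFP against scramble or SF3B2 against eGFP in HEK293T. None of the 8 or 9 tested in A549 passed either. Of all genes in HEK293T, 17.8% rose and 18.5% fell with snaR-A, and 22.9% rose and 25.8% fell with eGFP. For SF3B2 against eGFP there, 39 of 22623 passed. Of all genes in A549, 0.0185% passed with snaR-A and 1.49% with eGFP. For SF3B2 in A549, 3.42% rose and 3.6% fell. The part that unselected RNA played in the histone results was not tested. Among the HEK293T eGFP libraries, RN7SK ran from 5.49 to 40.4 CPM and H4C8 from 2.68 to 9.43 CPM. H3C6 ran from 8.81 to 10.1 CPM and H2AC6 from 5.96 to 6.49 CPM. Replicate 3, the library with A549 markers, had the lowest RN7SK and the highest H2AC6 of these. H2AC6 was at 25.0 to 32.4 CPM in A549, and what A549 transcripts added to it in that library was not tested.

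**Figure D4:**
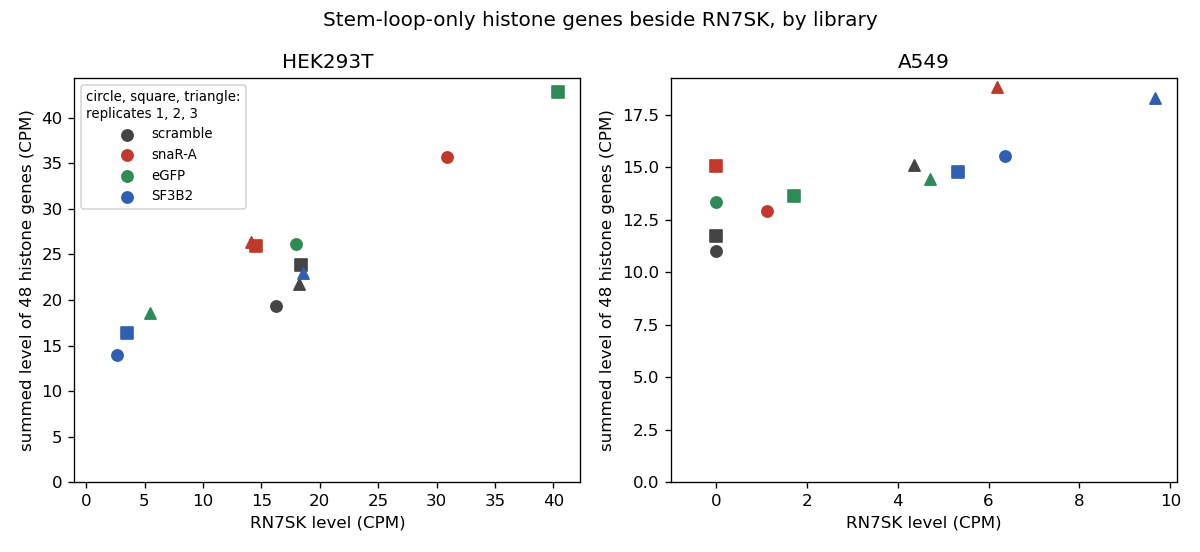
Summed CPM of 48 histone genes with stem-loop ends alone (vertical axis) beside the CPM of RN7SK (horizontal axis), for each of 12 HEK293T libraries (left) and 12 A549 libraries (right), colored by plasmid. In HEK293T the sum is highest, at 42.9 CPM, in the library with the highest RN7SK, at 40.4 CPM, and lowest, at 14 CPM, in the library with the lowest, at 2.62 CPM.

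Genes that act on histone mRNA were compared from a list of 17, of which 16 were tested. With snaR-A in HEK293T, 3 rose, 3 fell and 10 did not pass, which is near the shares of all genes (17.8% higher and 18.5% lower). The cap-binding subunit NCBP1 (log2 fold change 0.27), its partner SRRT (0.44) and ZNF473 (0.74), a zinc finger protein of U7 processing, were higher. LSM11 (-0.37), SLBP (-0.14) and NCBP2 (-0.14) were lower. LSM11 was at 70.7, 71.9 and 68.1 CPM in scramble and 57, 53.7 and 50.9 CPM with snaR-A. ZNF473 was at 24.3, 22.9 and 23.7 against 37.7, 40.6 and 39.0 CPM. NPAT, the coactivator of histone gene transcription, was at 55.9 to 58.8 and 56.9 to 58.7 CPM (0.02 ± 0.04), and LSM10 at 12.2 to 14.3 and 13.3 to 14.2 CPM (0.06 ± 0.07).

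With eGFP in HEK293T, 4 of the 16 rose and 5 fell, again near the shares of all genes (22.9% higher and 25.8% lower), among them ZNF473 (1.03), SRRT (0.79), LSM11 (-0.55) and SLBP (-0.18). NPAT (0.03) and LSM10 (-0.06) did not pass. In SF3B2 against eGFP in HEK293T none of the 16 passed, where only 39 of all 22623 tested genes did.

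S phase genes showed both directions and small changes. With snaR-A in HEK293T, 4 of 22 rose, 4 fell and 14 did not pass, with a median of 0.03. With eGFP, 6 rose and 3 fell, with a median of 0.02. For this list and those of G2 and mitosis, chaperones and other histones, the shares of all genes to set beside the counts are 17.8% higher and 18.5% lower with snaR-A, and 22.9% and 25.8% with eGFP. POLA1, a subunit of DNA polymerase alpha (0.32 and 0.57), MCM5, of the replicative helicase (0.28 and 0.27), and CDC25A, a phosphatase of the G1 to S transition (0.27 and 0.38), rose in both. RRM2, a subunit of ribonucleotide reductase (-0.22 and -0.31), and PCNA, the sliding clamp (-0.21 and -0.24), fell in both. Of 12 genes of G2 and mitosis, 2 rose and 2 fell with snaR-A, and 1 rose and 4 fell with eGFP. Of 9 histone chaperone genes, 2 rose and 1 fell with snaR-A, and 4 rose and none fell with eGFP. In SF3B2 against eGFP in HEK293T, none of these 3 lists had a gene that passed, where only 39 of all 22623 tested genes did.

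Of 9 other histone genes tested, mainly variants made throughout the cell cycle, 2 rose and 1 fell with snaR-A in HEK293T, and 2 rose and 4 fell with eGFP. H2AX, which marks DNA breaks when phosphorylated, was at 20.1, 20.2 and 18.9 CPM in scramble, 21.8, 25.9 and 24 CPM with snaR-A (0.28 ± 0.06) and 28.3, 33.9 and 26.7 CPM with eGFP (0.59 ± 0.09). H3-3B, which encodes the H3.3 variant, rose by 0.15 and 0.25, and H3-3A, which encodes the same protein, changed by -0.13 (not passing) and -0.19. H2AZ1 did not pass (0.00 and -0.08). In A549, no gene of these 5 lists passed for snaR-A or eGFP against scramble (0.0185% and 1.49% of all genes passed). For SF3B2 against eGFP there, H2AX (0.29), UPF1 (0.25) and MCM5 (0.25) rose and NASP (-0.26) fell. Of all genes, 3.42% rose and 3.6% fell in that comparison.

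The widest differences were between the cell lines. Over the 24 libraries with plasmid in the fit, 23 of 62 genes were higher in HEK293T (42.1% of all genes were higher) and 23 lower (41.7% of all). Past a log2 fold change of 1 there were 17 higher (24.7% of all) and 15 lower (22.7% of all). When libraries were scaled by size alone, the median of all genes moved by 0.46 and the split was 30 higher and 14 lower. Directions below are relative to that shift.

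H1-10 was higher in HEK293T but its ranges overlapped, with a lowest, median and highest level of 48.7, 89.3 and 114 CPM in HEK293T and 42.7, 50.7 and 58.0 CPM in A549 (log2 fold change 0.75 ± 0.09). H1-10-AS1 (2.17 ± 0.10) lay at 1.90 to 3.10 CPM in HEK293T and 0.313 to 0.708 CPM in A549. H4C3 lay at 4.38 to 9.53 CPM in HEK293T and 1.47 to 2.63 CPM in A549 (1.88 ± 0.10), and H2BC15 at 4.29 to 10.2 and 1.63 to 3.81 CPM (1.26 ± 0.15).

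Most of the polyadenylated histones were higher in A549, with 6 of the 8 on that list lower in HEK293T and 2 higher (4 and 2 when scaled by size alone). H2AC6 lay at 25.0, 29.0 and 32.4 CPM (lowest, median, highest) in A549 and 3.03, 4.76 and 7.88 CPM in HEK293T (-2.62 ± 0.11, adjusted p = 3.31e-16). H2BC5 lay at 14.1 to 16.9 CPM in A549 and 3.36 to 8.28 CPM in HEK293T (-1.77 ± 0.09). H2BC6 (-1.89 ± 0.16), H2BC4 (-1.67 ± 0.13) and H2BC21 (-1.64 ± 0.13) likewise did not overlap between the lines. H1-2 (-0.60), H2BC12 (-0.61), H4C8 (-0.91) and H4C15 (-0.65) were lower but lost their calls under scaling by size alone. H3C6 was lower by this fit (-0.38 ± 0.16, adjusted p = 0.027) and 0.08 under that scaling, and its HEK293T range of 2.08 to 10.1 CPM held the A549 range of 6.17 to 7.49 CPM. It lost its call without any of the 3 HEK293T scramble libraries.

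**Figure D5:**
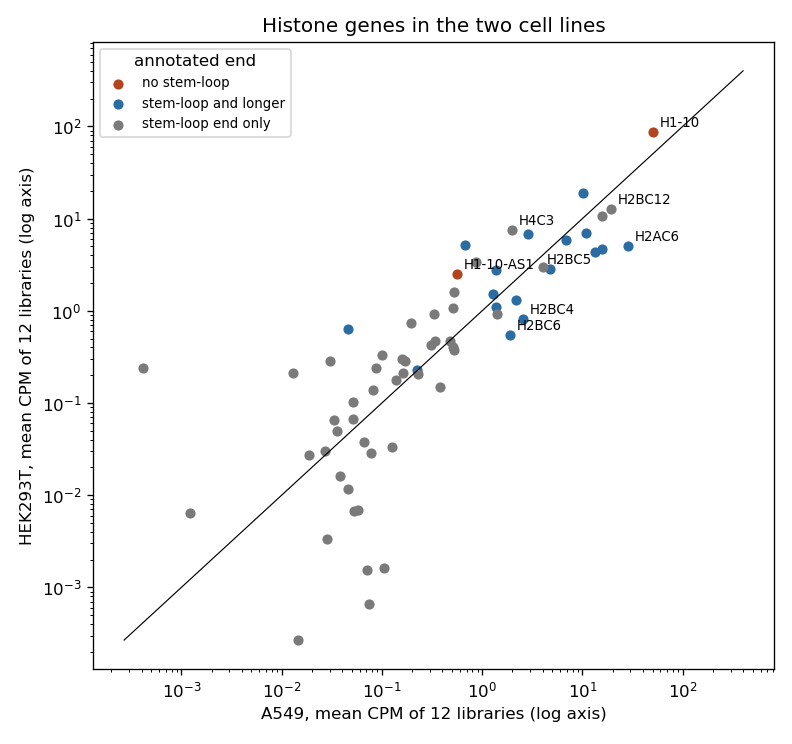
Mean CPM of each histone gene over the 12 HEK293T libraries (vertical) against the 12 A549 libraries (horizontal), both on log axes, for genes above 0 in both, with the line of equal level. With 1 gene left out, H4C3 lies above the line, and H2AC6, with a median of 29.0 CPM in A549 and 4.76 CPM in HEK293T, lies farthest below it among the named genes.

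The lists around the histone genes were counted between the lines too, beside 42.1% of all genes higher in HEK293T and 41.7% lower. Of the 22 S phase genes, 18 were higher in HEK293T and 4 lower, with a median of 0.67. Of the 16 genes acting on histone mRNA, 8 were higher and 6 lower, with LSM11 (2.04 ± 0.07), NPAT (0.79 ± 0.04), SLBP (0.36 ± 0.06) and LSM10 (0.30 ± 0.06) higher. Of 9 histone chaperones 8 were higher and 1 lower, of 12 G2 and mitosis genes 5 were higher and 5 lower, and of 10 other histone genes 3 were higher and 5 lower. Of 13 nonpolyadenylated RNAs 4 were higher and 3 lower. With libraries scaled by size alone, the counts higher and lower were 20 and 2 for S phase, 13 and 2 for histone mRNA, 8 and 1 for chaperones, 8 and 0 for G2 and mitosis, 6 and 2 for other histones and 7 and 2 for nonpolyadenylated RNAs. RN7SK was higher in HEK293T (2.62 ± 0.87, adjusted p = 0.00845), at 2.62 to 40.4 CPM against 0 to 9.65 CPM. Its part in the difference between the lines was not tested.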

How the data were processed

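The authors trimmed reads with TrimGalore, quantified them with Salmon on a human transcriptome (hg38 in the submitters' processing notes) and deposited estimated counts (expected counts per Ensembl gene), not scaled between libraries. The release and the tool that summed transcripts to genes are not given in the sources used here. Of the values, 51% were not whole, and all were rounded. Libraries were stranded poly(A) selections after rRNA depletion. Depth was 195185935 to 260878271 counts per library.

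Counts were fitted in R (version 4.3.3) with edgeR (4.0.16, on limma 3.58.1). DESeq2 (1.42.0) served as an alternative and Python (3.11.15) for summaries. The low-count filter was filterByExpr, normalization was TMM, and each gene got a quasi-likelihood F-test. P-values were adjusted by Benjamini-Hochberg across every gene that passed the filter. A gene was called at an adjusted p under 0.05. Levels in CPM are TMM-scaled over all 24 libraries. The comparison of lines held plasmid as a covariate, and differences between lines were interaction terms over 12 libraries. Alternatives were edgeR's exactTest, DESeq2, RLE in place of TMM, library sizes with no scaling factor, no filter, a floor of 10 counts per library, a joint fit of each line's 12 libraries, scramble libraries alone for the lines, a replicate block and each library left out. Summing identical copies and the list counts under library sizes alone were added after seeing the data. The steps were tested on simulated data.

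The histone genes, the lists (histone mRNA processing, S phase, G2 and mitosis, chaperones, other histones, polyadenylated histones, nonpolyadenylated RNAs, markers of each line) and the tests were chosen with earlier results of these data known. Named genes were the 2 highest per kb in each class, the 8 polyadenylated histones and, in each comparison, up to 4 per direction with the largest change among called genes of at least 1 CPM without overlap (up to 3 in all for differences between lines). Called members of the lists could be named too. NPAT, SLBP, LSM10, LSM11, H2AX, H2AZ1, H3-3A and H3-3B could be named anywhere. Annotation came from GENCODE 44 and promoters from RefSeq. 1 of the histone genes counts in the totals but is not reported by name or plotted. No 2 replicates within a group were copies of each other.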

Additional observations from a re-analysis of the deposited data

Results flagged for a closer look

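Effects that differed between HEK293T and A549 by the interaction test of edgeR were singled out for the named genes, as the log2 fold change in HEK293T minus that in A549. For snaR-A against scramble these were H3C6 (1.31), H2AC6 (1.14), H4C8 (0.70), H2BC5 (0.42) and H2BC21 (-0.50). For eGFP against scramble they were H3C6 (1.85), H2BC6 (1.33), H2AC6 (0.92) and H2BC5 (0.72). For SF3B2 against eGFP they were H2BC15 (-1.39), H2BC6 (-1.35), H1-2 (-0.92), H2AC6 (-0.75) and H3C6 (-0.68). Over all genes, 6.64% were higher and 4.79% lower for snaR-A, 10.8% higher and 15.6% lower for eGFP, and 2.58% lower for SF3B2. The histone genes had 5 of 60 higher for snaR-A, 6 of 57 higher for eGFP and 5 of 59 lower for SF3B2. With single libraries left out, calls were lost for H4C8, H2BC5 and H2BC21 (snaR-A), H2BC5 (eGFP), and H1-2 and H2BC6 (SF3B2). H3C6 and H2AC6 appeared in all 3, which share control libraries. In A549 both genes stayed at narrow levels, 6.17 to 7.49 CPM and 25.0 to 32.4 CPM, and in HEK293T they ranged over 2.08 to 10.1 CPM and 3.03 to 7.88 CPM. Groups of 3 libraries were too small to test for single outlying values.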

How the results depend on the processing

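Counts of called histone genes moved by more than 1.5 times under some settings, and the cause was not tested. For snaR-A against scramble in HEK293T the count was 20, 12 with all 12 libraries of the line in 1 fit, and 13 to 19 with each library left out. For eGFP against scramble in HEK293T it was 18, and 13 to 29 with each library left out. For SF3B2 against eGFP in HEK293T it was 2, 8 with exactTest, 14 with DESeq2, 16 with 1 fit of the line, and 0 to 8 with each library left out. In A549, snaR-A gave 0, 1 with DESeq2, and 0 to 1 with each library left out. SF3B2 there gave 3, 6 with DESeq2, 0 with 1 fit of the line, and 0 to 9 with each library left out. Between the lines the count was 46, and 26 among genes with at least 10 counts in every library. For differences between lines, snaR-A gave 6, 3 without the filter and 2 to 6 with each library left out, eGFP gave 7, 12 with DESeq2 and 6 to 12, and SF3B2 gave 5, 17 with DESeq2, 10 with the stricter filter and 3 to 26.

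The value that turned direction was H3C6 between the lines, 0.08 with libraries scaled by size alone. That scaling moved the median of all genes by 0.46 there, and by 0.11 for eGFP and -0.16 for SF3B2 in HEK293T. Of 1323 alternative values of 64 called results of named genes, 1181 kept direction and call, 141 lost the call and 1 turned direction.

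Replicate numbers were not taken to pair the libraries over all genes, since the median correlation of same-numbered libraries was -0.0063 in HEK293T and -0.0038 in A549. In all 4 A549 groups, however, replicate 3 had the highest RN7SK and the highest sum of the 48 genes with stem-loop ends alone. With the replicate block the count was 17 for snaR-A, 16 for eGFP and 0 for SF3B2 in HEK293T, 1 for SF3B2 in A549, and 4, 7 and 3 for the differences between lines.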
